A study of Mus musculus with 8 samples.

Results

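The genes described here encode DNA damage signalling kinases and mediators, the factors that mark DNA breaks and unsynapsed chromosome axes in spermatocytes. They were taken by name: Atm, Atr, Topbp1, H2ax (H2afx in older annotation), Mdc1, Brca1, Brca2, Rpa1, Rpa2 and Rpa3, 10 of the 24651 genes to which the counts were summed. Their transcript levels were compared between testes from 4 wild type and 4 Morc2b-/- males at postnatal day 12, when the leading germ cells have reached zygotene. MORC2B is a germ cell protein of the MORC family of chromatin ATPases. The null allele lacks exon 2, which holds the whole coding region, carries a PGKNeo cassette in its place and came from 1 targeted clone of V6.5 ES cells (a C57BL/6 x 129S4/SvJae hybrid). Chimeras were bred with C57BL/6 females, so that all 8 males were on a mixed background. The sample labels call the controls wild type, whereas the series design text calls them Morc2b+/-. They are called wild type here, and which of the 2 they were was not resolved.

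In meiosis, SPO11 makes programmed breaks, and the resected ends are coated by RPA, the trimeric single-stranded DNA binding complex of RPA1, RPA2 and RPA3. ATM responds mainly to breaks, whereas ATR is recruited to RPA-coated DNA and is activated there by TOPBP1. Both kinases phosphorylate the histone variant H2AX, and the adaptor MDC1 binds that phosphorylated histone and spreads it from unsynapsed axes into chromatin loops. BRCA1 localizes to unsynapsed axes and promotes loading of ATR there, while BRCA2 loads the meiotic recombinase DMC1. Much of this signalling acts through phosphorylation and relocalization of protein, which transcript counts do not measure.

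Libraries held between 27144796 and 36941755 counts on transcripts. The Morc2b level was 17.2 ± 16.5 CPM in wild type and 0.989 ± 1.54 CPM in Morc2b-/- testes (SD, n = 4 each), but the groups overlapped: the library labelled wild type 3 had 0.857 CPM and the library labelled Morc2b-/- 3 had 3.29 CPM. Values are given below as CPM, counts scaled to a common library size with TMM factors, and the fitted differences and the correlations with early meiotic markers are also given without these 2 libraries. Testis markers were present in all libraries. Summed Sertoli markers ranged from 8217 to 9842 CPM and summed spermatogonia markers from 1206 to 1503 CPM. Summed spermatid markers, from cells that a day 12 testis should lack, were 169 CPM in wild type 1, 345 CPM in Morc2b-/- 3 and 39.9 CPM or less in the other 6 libraries. Wild type 1 also had the highest summed epididymal markers, 413 CPM against 103 to 194 CPM elsewhere, and peritubular myoid markers, 1801 CPM against 802 to 1023 CPM. Most of the epididymal sum outside wild type 1 came from Eppin, which was at 103 to 178 CPM across all libraries. Of the other epididymal markers, Crisp1 was at 84.4 CPM in wild type 1, 5.73 CPM in Morc2b-/- 2 and 0.258 CPM or less in the other 6 libraries.

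No difference between genotypes passed the test in any of the 9 genes that could be tested. Of these 9, which passed the filter on low counts (Rpa1 did not), 0 had an adjusted p under 0.05 by edgeR's quasi-likelihood test with Benjamini-Hochberg adjustment over 13507 genes. The background was the same: 0 of the 13507 genes, or 0%, were called. The deleted gene Morc2b was itself not called, at a log2 fold change of -4.09 (same test, unadjusted p = 0.00793, adjusted p = 0.9998). The absence of calls therefore does not show that levels were equal. At an unadjusted p under 0.05 there were 0 of the 9 genes against 249 genes, or 1.84%, of all those tested, and by the other tools limma-voom called 0 genes and DESeq2 called 1 gene, which was not among the 10. Groups did not overlap in 0 of the 9 genes and in 1.29% of all genes tested, with the Morc2b-/- samples all above wild type in 0.407% and all below in 0.881%. The fitted difference was below 0 in 9 of 9 genes, with a median log2 fold change of -0.05 against 0.00 for all genes, and the median standard error of all genes was 0.14. The 9 include Brca2, whose low counts are no measure of its expression, as described below. Signs were uneven in cell type markers too: fitted differences were below 0 in 10 of 13 early meiotic markers (median -0.07) and above 0 in 10 of 11 tested Sertoli markers (median 0.07), and 0 of either list were called by edgeR. Their part in the signs of the 9 genes was not tested beyond the fit with the early meiotic score given below. These signs are not separate observations, because several of the genes varied together between samples, as described below.

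**Figure D1:**
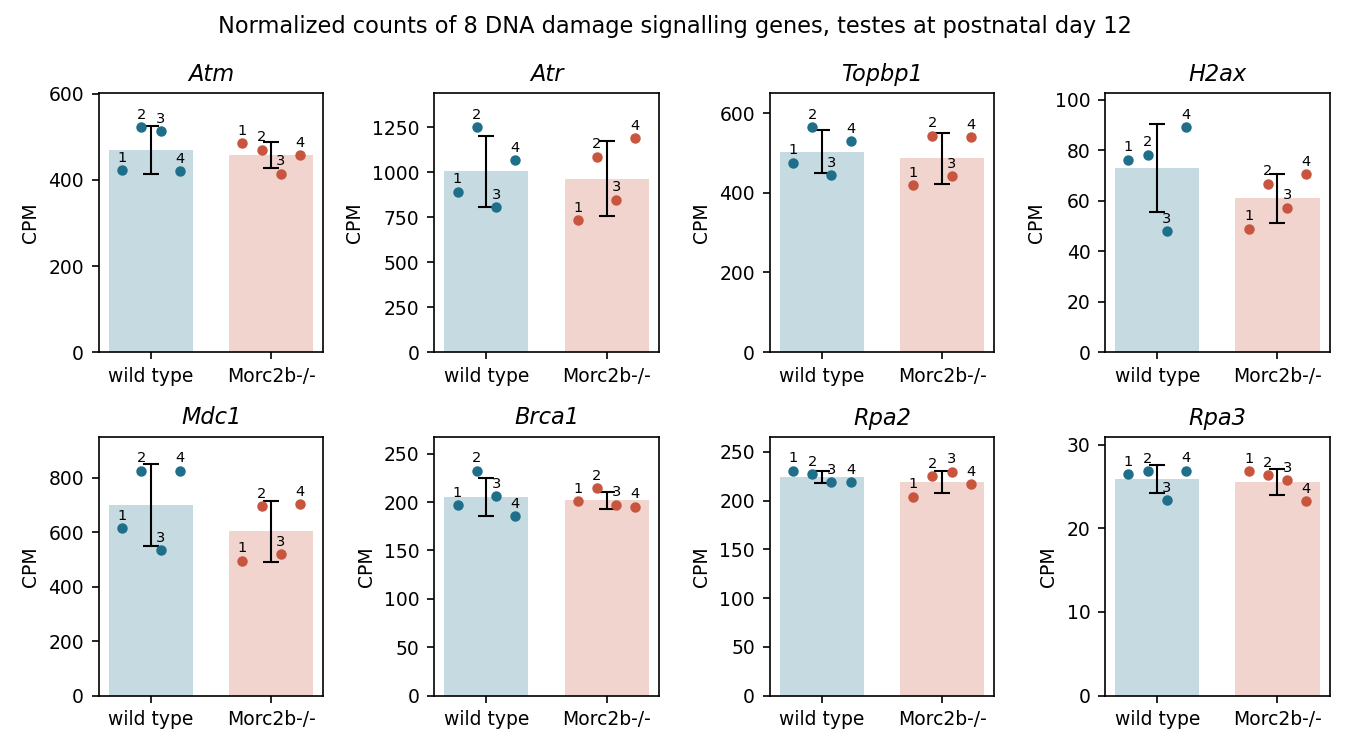
CPM of 8 genes (y axes, each from 0) by genotype at postnatal day 12. Points are samples with their replicate numbers, bars are means and whiskers are SD (n = 4 each); the groups overlap in every panel. Brca2 and Rpa1, with at most 29 counts in a sample, are not drawn.

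The kinase genes were both expressed in every sample. Atm (chr9:53247254-53344845, minus strand, mm9) encodes the kinase that responds to breaks and, in meiosis, also restrains further SPO11 activity. It had 422, 522, 513 and 420 CPM in wild type 1 to 4 and 486, 471, 415 and 457 CPM in Morc2b-/- 1 to 4. Samples of both genotypes were scattered through this narrow range, and the highest sample was only 1.26 times the lowest. The means were 469 ± 55.8 and 457 ± 30.5 CPM (SD, n = 4 each), a log2 fold change of -0.04 with a standard error of 0.09 and a 95% interval of -0.24 to 0.16.

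Atr (chr9:95758016-95852063, plus strand, mm9) encodes the kinase that acts on RPA-coated DNA and on unsynapsed axes. It had 893, 1251, 807 and 1069 CPM in wild type 1 to 4 and 736, 1086, 848 and 1190 CPM in Morc2b-/- 1 to 4. In each genotype samples 2 and 4 were high and samples 1 and 3 were low, and the lowest and the next to highest samples were both Morc2b-/-. The means were 1005 ± 197 and 965 ± 209 CPM (SD, n = 4 each), a log2 fold change of -0.06 with a standard error of 0.18. Its 95% interval, 0.729-fold to 1.26-fold, was wider than that of Atm, 0.847-fold to 1.12-fold. Of the Atr exonic bases, 3.98% overlap the opposite-strand genes 1700065D16Rik and Gm16794, and the strand setting of the counting is not given in the sources used here.

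Topbp1 (chr9:103207545-103252762, plus strand, mm9) encodes the activator of ATR. Its levels were 476, 565, 444 and 530 CPM in wild type 1 to 4 and 420, 543, 442 and 540 CPM in Morc2b-/- 1 to 4. The order of the samples was close to that of Atr, with samples 2 and 4 high in both genotypes, and the groups overlapped throughout. The means were 504 ± 54.0 and 486 ± 64.5 CPM (SD, n = 4 each), a log2 fold change of -0.05 with a standard error of 0.11 and a 95% interval of -0.29 to 0.19.

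The histone mark and its reader had larger fitted differences, but these too were within the spread of the samples when replicate numbers were ignored. H2ax (chr9:44142798-44144154, plus strand, 1 exon, mm9) encodes the histone variant whose phosphorylation marks breaks and, later, the sex body. It had 76.3, 78.3, 48.0 and 89.1 CPM in wild type 1 to 4 and 49.0, 66.8, 57.3 and 70.6 CPM in Morc2b-/- 1 to 4. Wild type samples 1, 2 and 4 were the 3 highest of all 8, whereas wild type 3 was the lowest. The overlap of the H2ax groups thus rested on wild type 3, the library with only 0.857 CPM of Morc2b. How many of all genes tested separate without that library was not counted, so this is not shown to be particular to H2ax. Without wild type 3 and Morc2b-/- 3 the fitted log2 fold change was -0.39, and H2ax was not called in that fit either. The means were 72.9 ± 17.6 and 60.9 ± 9.73 CPM (SD, n = 4 each), a log2 fold change of -0.26 with a standard error of 0.19 and a 95% interval of -0.68 to 0.16 (exact two-sided permutation test, p = 0.343). Libraries were made from polyadenylated RNA, so that any histone transcripts ending in a stem-loop without a poly(A) tail would be missed.

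Mdc1 (chr17:35978460-35996615, plus strand, mm9) encodes the adaptor that binds phosphorylated H2AX. It had 615, 826, 533 and 826 CPM in wild type 1 to 4 and 496, 696, 519 and 702 CPM in Morc2b-/- 1 to 4. Samples 2 and 4 were again the highest in each genotype, and wild type 1 and 3 lay among the Morc2b-/- values. The means were 700 ± 149 and 603 ± 111 CPM (SD, n = 4 each), a log2 fold change of -0.21 with a standard error of 0.17 and a 95% interval of -0.60 to 0.17 (exact two-sided permutation test, p = 0.343). With a block for replicate number the log2 fold change was -0.21 with a standard error of 0.05 (edgeR's quasi-likelihood test, adjusted p = 0.985). Whether replicate numbers pair the samples was not resolved. Mdc1 lies 2.702 Mb from Morc2b on chromosome 17, so that Morc2b-/- males are likely to carry the Mdc1 allele of the targeted ES cell clone, and any effect of that allele and of the Morc2b deletion cannot be told apart.

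Brca1 (chr11:101350078-101413269, minus strand, mm9) was among the steadiest genes. Its levels were 197, 232, 206 and 186 CPM in wild type 1 to 4 and 201, 214, 197 and 195 CPM in Morc2b-/- 1 to 4. All 4 Morc2b-/- samples lay inside the wild type range. The means were 205 ± 19.9 and 202 ± 8.49 CPM (SD, n = 4 each), a log2 fold change of -0.02 with a standard error of 0.07, and the 95% interval ran from 0.878-fold to 1.10-fold.

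The RPA subunits that could be measured varied least. Rpa2 (chr4:132324247-132334667, plus strand, mm9) had 231, 227, 219 and 219 CPM in wild type 1 to 4 and 204, 225, 230 and 217 CPM in Morc2b-/- 1 to 4. Only Morc2b-/- 1 fell clearly below the rest, and the highest sample was 1.13 times the lowest. The log2 fold change was -0.03 with a standard error of 0.05, and its 95% interval, 0.902-fold to 1.06-fold, was the narrowest of the 9 genes. Rpa3 (chr6:8205936-8209173, minus strand, mm9), which encodes the smallest subunit, had 26.4, 26.8, 23.4 and 26.9 CPM in wild type 1 to 4 and 26.8, 26.3, 25.8 and 23.2 CPM in Morc2b-/- 1 to 4. A low sample was present in each genotype, wild type 3 and Morc2b-/- 4, and the other 6 were close together. The log2 fold change of Rpa3 was -0.02 with a standard error of 0.08 and a 95% interval of -0.21 to 0.17.

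Brca2 (chr5:151325205-151372321, plus strand, mm9) and Rpa1 (chr11:75111668-75161826, minus strand, mm9) could not be assessed. Brca2 had 18, 14, 29 and 9 counts in wild type 1 to 4 and 16, 9, 21 and 16 counts in Morc2b-/- 1 to 4. Rpa1 had 4, 0, 3 and 0 counts in wild type 1 to 4 and 2, 1, 4 and 1 counts in Morc2b-/- 1 to 4. Both genes are listed with 2 RefSeq transcripts, of which 1 had 0 counts in every sample, whereas the other 8 genes are listed with 1 transcript each. Reads that fell on more than 1 listed transcript were tallied apart by the counting and are in no gene's count, and they made up 26.8% to 28.8% of uniquely mapped reads. The counts of Brca2 and Rpa1 are therefore no measure of their expression, and the Brca2 log2 fold change of -0.27 had a 95% interval of -1.23 to 0.68.

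**Figure D2:**
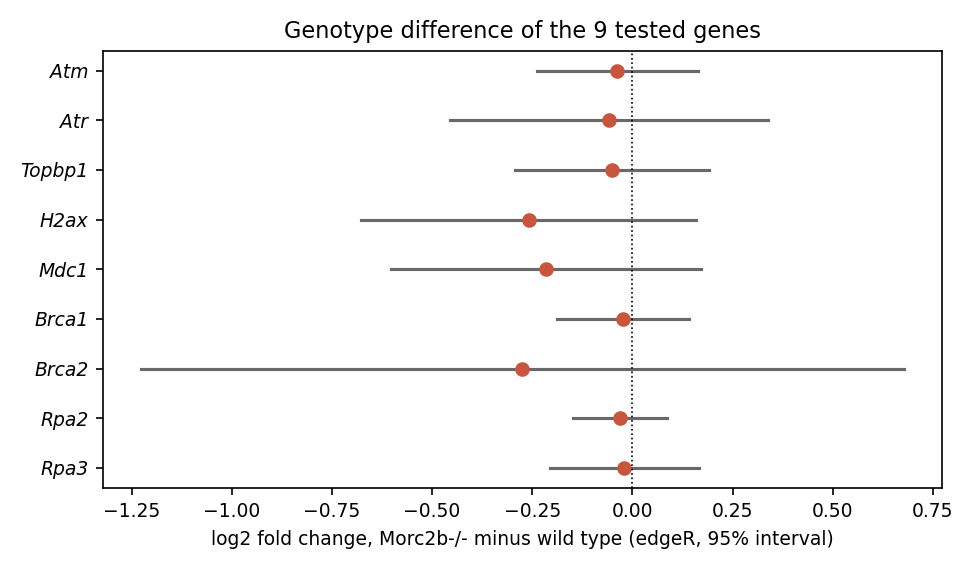
Fitted log2 fold change (x axis, Morc2b-/- minus wild type) of the 9 genes tested by edgeR, with 95% intervals. All 9 intervals include 0; that of Rpa2 is the narrowest and that of Brca2 the widest.

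Levels were compared between genes per length, as CPM per kb of the longest annotated transcript, over all 8 samples. Rpa2 (122 ± 4.83 CPM per kb, SD, n = 8) and Atr (122 ± 23.4) stood highest and did not differ beyond their spread. Topbp1 (94.7 ± 10.7) and Mdc1 (88.8 ± 18.0) followed, and both overlapped each other and the lower Atr samples. H2ax (49.3 ± 10.8) and Atm (46.3 ± 4.21) overlapped at a lower level. Rpa3 (37.7 ± 2.26) overlapped H2ax, and Brca1 (31.0 ± 2.18) stood lowest and overlapped Rpa3 only through its highest sample. The Atr level per length was 1.88 to 3.22 times that of Atm in the 8 samples, 2.67 ± 0.530 in wild type and 2.62 ± 0.572 in Morc2b-/- testes (SD, n = 4 each). Rpa2 was 2.87 to 3.52 times Rpa3 per length, although the proteins are subunits of the same complex. The order rests on the longest transcript, since with the shortest annotated one, often a fragment, Atm would stand at 1648 and Mdc1 at 1544 CPM per kb.

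**Figure D3:**
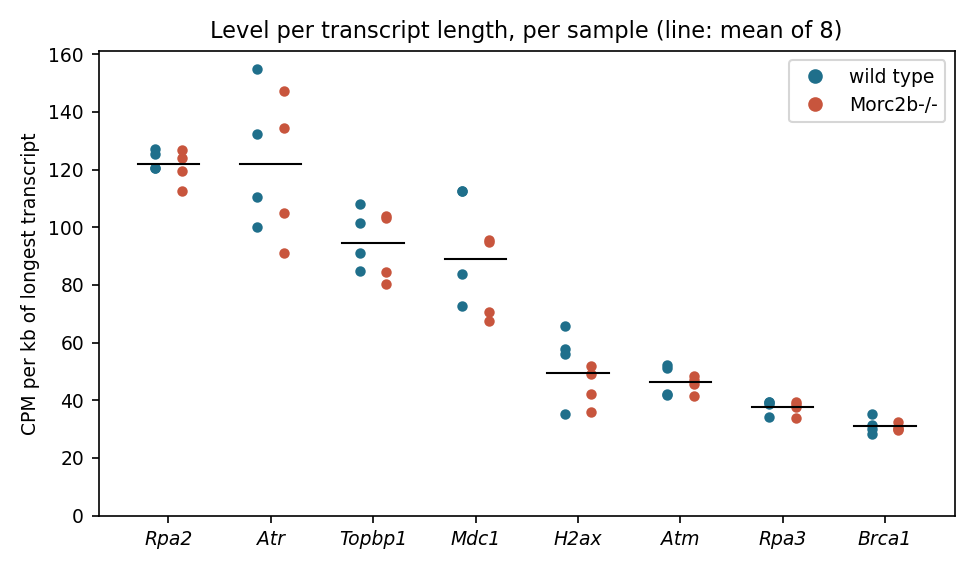
CPM per kb of the longest annotated transcript (y axis) of 8 genes in each sample, ordered by their mean over 8 samples (line). Rpa2 and Atr share a mean of 122 CPM per kb, but the samples are close together for Rpa2 and spread from 91.1 to 155 for Atr.

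The genes differed in how much they varied over all 8 samples. The highest sample was 1.86 times the lowest for H2ax, 1.70 times for Atr, 1.67 times for Mdc1 and 1.35 times for Topbp1, against 1.26 for Atm, 1.25 for Brca1, 1.16 for Rpa3 and 1.13 for Rpa2. A score of early meiotic markers was therefore set beside each gene. It is the mean, over 13 marker genes such as the synaptonemal complex genes Sycp1 and Syce1 and the recombinase gene Dmc1, of log2 CPM after subtracting each marker's 8-sample mean, and none of the 10 genes is in it. This comparison was chosen after the values had been seen. The score was -0.08, 0.35, -0.16 and 0.10 in wild type 1 to 4 and -0.38, 0.12, -0.22 and 0.26 in Morc2b-/- 1 to 4, so that samples 2 and 4 were above 0 and samples 1 and 3 below 0 in both genotypes. In whole testes, fewer cells of a type and less RNA per cell cannot be told apart.

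Atr followed this score most closely. Over the 8 samples Pearson's r was 0.988 (exact permutation test, p = 9.92e-05) and Spearman's rho 0.976 (exact permutation test, p = 0.000397), with a Benjamini-Hochberg adjusted p of 0.00112 for r over the 18 relations computed (8 genes and the Atr to Atm ratio, each with 2 scores). For Topbp1, r was 0.973 (exact permutation test, p = 0.000124, adjusted p = 0.00112) and rho 0.976, and for Mdc1, r was 0.910 (exact permutation test, p = 0.00322, adjusted p = 0.0193) and rho 0.929. Without the 2 samples farthest from the median score (wild type 2 and Morc2b-/- 1), r was 0.977 for Atr, 0.956 for Topbp1 and 0.835 for Mdc1. After centring each genotype on its own mean, r was 0.993, 0.973 and 0.914 in the same order. Without wild type 3 and Morc2b-/- 3, r was 0.997, 0.974 and 0.891 (n = 6). Per log2 unit of the score, the log2 level rose by 1.10 for Atr, 1.06 for Mdc1 and 0.634 for Topbp1. How many of all genes tested follow the score as closely was not counted. The relation is therefore not shown to be particular to these genes.

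The relation did not pass the adjustment for H2ax or for the other 4 genes. For H2ax, r was 0.738 (exact permutation test, p = 0.0426, adjusted p = 0.0767) and rho 0.667 (exact permutation test, p = 0.0831, adjusted p = 0.150), and r was 0.587 without the 2 farthest samples and 0.695 without wild type 3 and Morc2b-/- 3. For Atm, r was 0.180 (exact permutation test, p = 0.662), for Brca1 0.376 (exact permutation test, p = 0.367), for Rpa2 0.358 (exact permutation test, p = 0.393) and for Rpa3 -0.07 (exact permutation test, p = 0.859). Without wild type 3 and Morc2b-/- 3 these were 0.197, 0.387, 0.581 and -0.36 in the same order (n = 6). The kinases were also compared through their ratio, which is built from the 2 levels already described and is no separate support for a difference. Log2 Atr minus log2 Atm followed the score with r of 0.847 (exact permutation test, p = 0.00737, adjusted p = 0.0331) and rho of 0.857 (exact permutation test, p = 0.0107, adjusted p = 0.0482). The r of this ratio was 0.800 without the 2 farthest samples and 0.904 without wild type 3 and Morc2b-/- 3. Against a score of spermatogonia markers the sign was opposite, with r of -0.81 for Atr, -0.79 for Mdc1, -0.77 for Topbp1 and -0.74 for H2ax, but none of these passed the adjustment over 18 relations (lowest adjusted p of these exact permutation tests 0.0543).

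**Figure D4:**
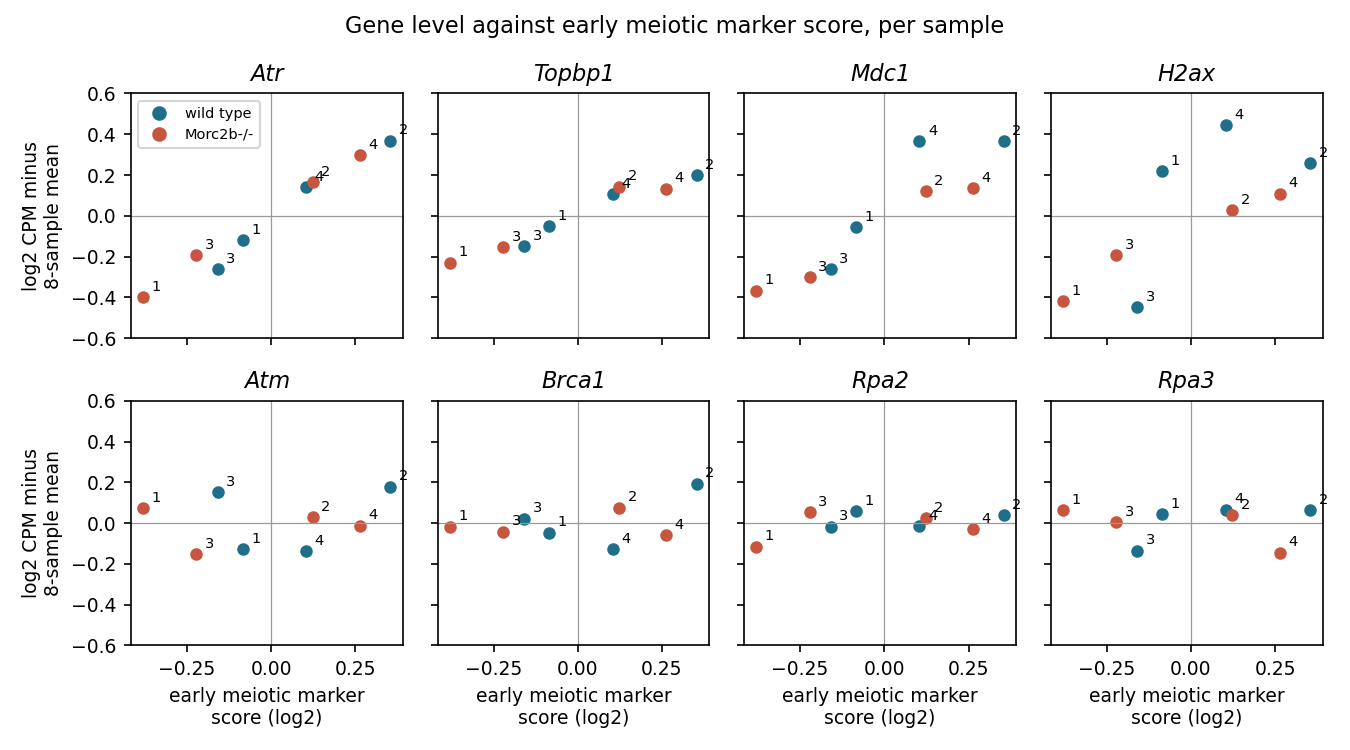
Log2 CPM of 8 genes, each minus its 8-sample mean (y axes), against the early meiotic marker score (x axes, log2), with 1 point per sample and the replicate number beside it. Atr, Topbp1 and Mdc1 rise along the score in both genotypes (r of 0.988, 0.973 and 0.910), and H2ax less closely. Atm, Brca1, Rpa2 and Rpa3 do not follow it closely, although Atm varies from -0.15 to 0.18 and Brca1 reaches 0.19.

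With the early meiotic score as a covariate in the edgeR fit, the genotype difference of Atr was 0.06 on the log2 scale with a standard error of 0.04, down from 0.18 without it, and that of Topbp1 was 0.02 with a standard error of 0.05. Both signs were thus opposite to those without the covariate, and both 95% intervals included 0. The difference of Mdc1 was -0.10 with a standard error of 0.08 and that of H2ax -0.17 with a standard error of 0.14. None was called with the covariate (edgeR's quasi-likelihood test, adjusted p = 0.9999 for each). Ratios within a sample, taken without a fit, overlapped between the genotypes. The Mdc1 level per length was 1.80 ± 0.252 times that of H2ax in wild type and 1.83 ± 0.109 times in Morc2b-/- testes. Atr was 1.28 ± 0.114 and 1.27 ± 0.121 times Topbp1 in the same order (SD, n = 4 each).

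Promoter sequences are shown for genes that followed the score and for steadier or unmeasured genes beside them, with motifs chosen after the values had been seen. The windows are 30 bases from RefSeq promoters (GRCm38.p6, a different build from the counts, 250 bases before to 50 after the gene start), which had an entry for 9 of the 10 genes. Capitals mark the E2F motif TTCCCGC in Mdc1, its reverse complement in Rpa2 and Brca2, the GC box GGGCGG in Topbp1 and its reverse complement in Atr, each 5′ to 3′ on the plus strand, which is the coding strand of all 5.
Mdc1, chr17:35841468-35841497: ttttcttcagcctgtTTCCCGCcggtagcc
Rpa2, chr4:132768312-132768341: gctgtcccttcGCGGGAAggagtttgtggc
Brca2, chr5:150522442-150522471: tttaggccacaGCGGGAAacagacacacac
Atr, chr9:95857537-95857566: ccgctgtcggctCCGCCCctgtcgcctctg
Topbp1, chr9:103305259-103305288: gggcgccgccgaGGGCGGgggctgcgcgcc

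Counting both strands, TTCCCGC was present in 4 of the 9 promoters (Atm, Mdc1, Brca2 and Rpa2) and in 4.60% of the 32851 mouse promoters of the same length. Of the genes that followed the score it was thus found in Mdc1 and not in the windows of Atr or Topbp1, and it was found in the steady genes Atm and Rpa2. GGGCGG was present in 6 of 9 (Atm, Atr, Mdc1, Topbp1, Rpa1 and Rpa3) against 35.7% of all promoters, and CCAAT in 6 of 9 (Atm, Mdc1, Brca1, Rpa1, Rpa2 and Rpa3) against 37.4%. The MYB core AACNG was present in 7 of 9 against 80.3%, and TGACGTCA, the cAMP response element, in 1 of 9 (Brca2) against 1.79%. No motif separated Atr, Topbp1 and Mdc1 from the steadier genes.

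The surrounding pathway was described through 88 further genes in 6 lists, of which 72 passed the filter. Of these 72, 0 were called in either direction by edgeR's quasi-likelihood test with Benjamini-Hochberg adjustment, and 0 had an unadjusted p under 0.05, when 1.84% of all genes did. Fitted differences were above 0 for 29 and below 0 for 43, with a median log2 fold change of -0.01. Some of the 72 genes are, like Brca2, listed with several transcripts, so that reads shared by those transcripts are missing from their counts. They enter these sign counts and medians and those of the lists below. Genotypes did not overlap in 3 of the 72 genes, or 4.17%, against 1.29% of all genes tested. These were Mei4, a factor needed for meiotic breaks, with all Morc2b-/- samples above wild type (14.6 ± 0.605 against 13.1 ± 0.404 CPM), and Rnf8, the ubiquitin ligase recruited by MDC1, with all below (11.7 ± 0.511 against 13.2 ± 1.04 CPM). The other was Trp53, which encodes p53, with only 10 to 18 counts in a sample.

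Among 11 tested genes of break sensing and end processing, 3 were above 0 and 8 below, with a median log2 fold change of -0.01. The fitted log2 fold changes ran from -0.33 for Kat5, an acetyltransferase that activates ATM, to 0.03 for Nbn, the MRN subunit that recruits ATM. Nbn was at 83.9 ± 6.46 CPM in wild type and 85.4 ± 5.87 CPM in Morc2b-/- testes, and Kat5 at 2.12 ± 0.376 and 1.68 ± 0.324 CPM (SD, n = 4 each). Kat5, Hus1 and Rad52 are listed with 4 transcripts each, Brcc3 with 3 and Trp53 with 2, so that, as for Brca2, their low counts are no measure of their expression. Rbbp8 (CtIP) is listed at 0 in all samples, with 4 listed transcripts.

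Among 9 tested genes of ATR activation, the checkpoint clamp and its loader, 4 were above and 5 below 0, with a median log2 fold change of -0.01. The extremes were Etaa1, an ATR activator that acts beside TOPBP1, at 0.11 and the clamp subunit gene Hus1 at -0.20, and Rhno1 and Tipin are listed at 0. The summed level of this list was 388 to 419 CPM in wild type and 396 to 414 CPM in Morc2b-/- testes. Among 12 tested checkpoint effectors and kinase assembly factors, 7 were above and 5 below 0, from -0.41 for Trp53 to 0.10 for Chek1, the effector kinase of ATR (68.3 ± 5.15 against 73.1 ± 4.63 CPM). Trp63 and Telo2 are listed at 0.

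Among 10 tested chromatin mediators and ubiquitin ligases, 4 were above and 6 below 0, with a median log2 fold change of -0.01, from -0.16 for Rnf8 to 0.17 for the deubiquitinase gene Brcc3, which was at only 13 to 26 counts in a sample. Uimc1 and Setdb1 are listed at 0. Among 16 tested BRCA partners and recombinase loading genes, 6 were above and 10 below 0, with a median of -0.05, and the lowest was Rad52 at -0.22 (1.19 ± 0.434 against 1.02 ± 0.166 CPM). Palb2, which encodes the partner that joins BRCA1 to BRCA2, is listed at 0. This list also holds the axis gene Sycp3, at 267 to 667 CPM.

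Among 14 tested genes of meiotic single-stranded DNA binding and the axis, 5 were above and 9 below 0, with a median log2 fold change of -0.03, from -0.49 for Mcmdc2, a meiotic MCM-like gene, to 0.17 for Mei4. Mcmdc2 had 14.0, 20.2, 9.89 and 33.3 CPM in wild type 1 to 4 and 8.40, 15.0, 10.3 and 21.4 CPM in Morc2b-/- 1 to 4. Samples 2 and 4 were again high in both genotypes. Meiob, which encodes a meiotic partner of RPA and is itself 1 of the 13 score markers, ranged from 31.1 to 104 CPM, whereas Rpa2 ranged from 204 to 231 CPM in the same samples.

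The genes with the profile most like the mean of the 9 tested genes, by root mean square difference of centred log2 CPM over 8 samples, were Sharpin (0.03), Aasdh (0.03), Slc25a28 (0.04), Fxr2 (0.04) and Esf1 (0.04). Because the low counts of Brca2 weigh in that mean, the search was repeated without it as a choice made after the data were seen, which gave Kyat1 (0.03), Tdrkh (0.03), Stk38 (0.03), Skap2 (0.04) and Mfn1 (0.04). The lists shared no gene. Nearest to Brca2, the gene with the largest spread, were Uchl1os (0.28), Accs (0.28) and Vipr2 (0.29), and nearest to H2ax, the gene with the largest spread among the other 8, were Enkd1 (0.06), Diablo (0.07) and 4931431C16Rik (0.08).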

How the data were processed

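Total RNA from pairs of testes of 8 males was made into poly(A)-selected, stranded libraries (TruSeq Stranded mRNA) and sequenced together on a NextSeq 500. Reads were cleaned and mapped to mm9 with Tophat by the authors. The files they deposited hold raw counts, listed by RefSeq transcript, with replicates kept apart. The counting program, strand setting and annotation release are not given in the sources used here. The authors' own comparison used Cufflinks and Cuffdiff on FPKM values, which were not used here.

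Of 35819 transcripts, 35522 were matched by accession to a symbol, and counts were summed to 24651 genes. Unmatched transcripts (297, with 0.484% of counts) were kept as units. Tally rows without a gene (no feature, ambiguous and the like) stayed out of library sizes and tests. Reads without a feature were 20.7% to 26.5% of uniquely mapped reads. No 2 samples agreed within sampling noise (chi-square per degree of freedom over genes 5.67 or more). Intervals rest on 4 animals a group.

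Genotypes were compared with edgeR 4.0.16 (R 4.3.3; filterByExpr, TMM, quasi-likelihood test, Benjamini-Hochberg over 13507 genes, threshold 0.05), fitted on all 8 samples. Confidence intervals are 95%. Permutation tests used log2 CPM (prior count 2) over all 70 label arrangements, which allow no two-sided p below 0.0286, or all pairings for correlations (scipy 1.17.1). Scripts were tested on simulated data. Alternatives were DESeq2 1.42.0, limma-voom 3.58.1, RLE scaling, other filters, transcripts as units, a replicate block, the marker covariate and leaving out samples. Coordinates come from GENCODE on mm9 (NCBIM37).

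Genes named are the 10 themselves, Morc2b, the extremes of each pathway list and any gene in it with an unadjusted p under 0.05, and the genes with the nearest profiles. An item that this rule names is not reported here. Rnf8, Mei4 and Trp53 fall under this rule, whereas Sycp3, Meiob, Eppin, Crisp1 and genes listed at 0 were named after their values were seen. The genes, lists and tests were chosen with earlier results of these data known.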

Additional observations from a re-analysis of the deposited data

Results flagged for a closer look

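In a test for a sample that stands apart in its group, run on 20 groups of 4 samples, 2 gaps exceeded the critical value of 0.829, and chance flags about 1 in 20 groups. For Rpa3, wild type 3 lay below the other wild type samples, with a gap of 0.877 of the group's range (23.4 CPM against 26.4 to 26.9 CPM). For Morc2b, Morc2b-/- 3 lay above the other Morc2b-/- samples, with a gap of 0.921 of the range (3.29 CPM against 0.0688 to 0.323 CPM).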

How the results depend on the processing

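No gene among the 10 and none of the 72 pathway genes tested was called under any alternative run. Over all genes, edgeR and limma-voom called 0 under every setting and DESeq2 called 1, and 204 to 572 genes had an unadjusted p under 0.05. The negative sign of H2ax (-0.42 to -0.15), Mdc1 (-0.33 to -0.12) and Rpa2 (-0.055 to -0.0016) held when each sample was left out in turn. It did not for Atm (-0.091 to 0.020), Atr (-0.18 to 0.066), Topbp1 (-0.11 to 0.012), Brca1 (-0.072 to 0.043), Brca2 (-0.51 to 0.15) and Rpa3 (-0.067 to 0.021). With the early meiotic score as covariate Atr was at 0.056 and Topbp1 at 0.015. Without wild type 3 and Morc2b-/- 3 together, added after seeing the data, Atm was at 0.052, Brca2 at 0.011, Atr at -0.093, Topbp1 at -0.063, H2ax at -0.39, Mdc1 at -0.26, Brca1 at -0.010, Rpa2 at -0.066 and Rpa3 at -0.070, none of them called, and the Morc2b log2 fold change was -6.63 in place of -4.09 (edgeR, adjusted p = 0.189 in place of 0.9998). With a prior count of 0.5, 4 of the 5 genes nearest the mean profile were shared.

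Whether replicate numbers pair the samples was not resolved. Deviations of same-numbered samples correlated at -0.32 to 0.45 over 4 pairs, and those of different-numbered samples at -0.50 to 0.61 over 12 pairs. Of the 8 samples, 4 correlated best with their own number. With a replicate block edgeR called 0 genes, and the log2 fold change of Mdc1 was -0.21 (adjusted p = 0.985) and that of H2ax -0.24 (adjusted p = 0.985). In that fit 572 genes had an unadjusted p under 0.05, against 249 without the block. The block lowered the standard error of Mdc1 from 0.17 to 0.05, of Atr from 0.18 to 0.08 and of Topbp1 from 0.11 to 0.05. That of H2ax went from 0.19 to 0.14, and that of Atm was 0.09 in both fits. The other alternatives turned no sign of the 9 genes. Atm, Atr and Mdc1 had 13302 or more counts in every sample, whereas Brca2 and Rpa1 had at most 29.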
